A study of Mus musculus with 8 samples.

Results

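The D-type cyclins Ccnd1, Ccnd2 and Ccnd3, the inhibitors of cyclin-dependent kinases Cdkn1a, Cdkn1b, Cdkn2a, Cdkn2b, Cdkn2c and Cdkn2d, and the p53 gene Trp53 were followed across all 8 arrays of mouse neurospheres. Probes were taken by the RefSeq accession that the array files pair with them. All 10 genes were found, with 14 of the 55681 non-control probes and 24 of the 59305 non-control spots. All 14 probes were well above background on all 8 arrays and none was saturated, so no member depended on the filter for dim probes.

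Neurospheres, floating clusters grown from neural stem cells, were made from the ganglionic eminence of E14.5 mouse embryos, 1 embryonic brain per sample, and the series describes RNA from quaternary neurospheres. The labels give 3 groups. WT floating (3 arrays) is wild type, KO floating (3 arrays) carries the label HP1gamma KO, and KO adherent (2 arrays) carries the same genotype label with adherent culture. HP1gamma is the chromatin protein encoded by Cbx3, which binds methylated histone H3. EGF, bFGF and B-27 supplement were in the medium of all groups per the labels, which describe low-attachment plates for every sample. Neither the kind of knockout allele, the adherent condition nor any embryo shared between floating and adherent samples is described in the sources used here.

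D-type cyclins bind CDK4 and CDK6, and the complex phosphorylates the retinoblastoma protein, which releases E2F factors and lets a cell pass from G1 into S phase. Mitogens such as EGF and FGF raise Ccnd1, and each D cyclin can carry neural progenitors into S phase. The INK4 proteins (p16 from Cdkn2a, p15 from Cdkn2b, p18 from Cdkn2c, p19INK4d from Cdkn2d) bind CDK4 and CDK6 and keep the cyclin off. The CIP/KIP proteins p21 (Cdkn1a) and p27 (Cdkn1b) act on CDK2 complexes, and p21 is a classic target of p53. Cdkn2a also encodes ARF from its own upstream start, which protects p53 by holding back Mdm2. Polycomb silencing of the Cdkn2a and Cdkn2b locus is known to sustain self-renewal of neural stem cells in culture.

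The Cdkn2a and Cdkn2b starts are shown because these neighbouring genes moved in opposite directions in the comparisons of KO with WT below. In 1 of these comparisons both passed the threshold. Of the 10 genes, 8 had windows in the RefSeq promoter table (GRCm38.p6, 250 bases before to 50 after the start), 12 windows in all. The windows below are on the minus strand of chromosome 4 and are written in the direction of transcription. Capitals mark motif matches on either strand. The letters searched were GGGCGG for the GC box, CACGTG for the E box and TTTCCCGC for E2F. They were TGACGTCA for the CRE and TGANTCA for AP-1. For the remaining boxes they were CCAAT and TATAAA.
Cdkn2a upstream start, chr4:89294570-89294869: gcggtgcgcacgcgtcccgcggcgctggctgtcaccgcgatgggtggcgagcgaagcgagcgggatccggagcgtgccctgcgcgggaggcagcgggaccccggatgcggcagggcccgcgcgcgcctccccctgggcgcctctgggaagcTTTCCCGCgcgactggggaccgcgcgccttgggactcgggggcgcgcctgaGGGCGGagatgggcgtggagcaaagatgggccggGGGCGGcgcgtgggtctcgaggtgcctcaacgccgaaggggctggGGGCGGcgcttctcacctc
Cdkn2a downstream start, chr4:89282143-89282442: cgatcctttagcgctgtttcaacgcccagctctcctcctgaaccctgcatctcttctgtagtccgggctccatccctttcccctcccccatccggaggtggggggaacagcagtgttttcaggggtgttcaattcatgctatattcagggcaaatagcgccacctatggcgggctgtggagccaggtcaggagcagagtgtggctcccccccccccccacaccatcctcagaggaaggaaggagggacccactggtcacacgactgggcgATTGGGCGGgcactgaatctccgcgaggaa
Cdkn2b start, chr4:89310983-89311282: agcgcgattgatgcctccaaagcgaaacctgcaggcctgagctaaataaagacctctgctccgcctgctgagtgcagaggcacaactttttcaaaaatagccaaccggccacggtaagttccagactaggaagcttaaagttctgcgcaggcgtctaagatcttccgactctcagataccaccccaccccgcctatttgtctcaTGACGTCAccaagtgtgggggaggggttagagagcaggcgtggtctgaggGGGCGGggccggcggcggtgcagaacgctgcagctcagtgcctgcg
The upstream Cdkn2a window held 45 CpG dinucleotides, 3 GC boxes and 1 E2F motif. The downstream Cdkn2a window held 12 CpG dinucleotides, with 1 GC box that overlaps 1 CCAAT box. The Cdkn2b window held 18 CpG dinucleotides, 1 GC box and 1 CRE. Over 32851 windows of the same length the median CpG count was 7, and a GC box was found in 35.7%, a CCAAT box in 37.4%, a CRE in 1.79% and an E2F motif in 1.07%. These matches are letters in the window, not measured binding.

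Levels are given as log2 of the processed signal minus the 75th percentile of its array, so a step of 1 is a doubling. Before the results, the arrays need a remark. The Cbx3 signal was 5.83 on WT floating 1, 5.95 on WT floating 3 and 5.91 on the array labelled KO adherent 2, against -2.76 to -1.75 on the other 5, which include the array labelled WT floating 2 at -2.17. So 2 arrays, that labelled WT floating 2 and that labelled KO adherent 2, oppose their labels. The arrays labelled WT floating 2 and KO floating 2 also stood apart in the immediate early gene Nr4a1 (4.50 and 4.83, against 7.43 to 8.01 on the other 6). Labels were kept, and results are given with and without the 2 label-opposing arrays, those labelled WT floating 2 and KO adherent 2. Over the arrays, 44.5% to 55.4% of spots were above background, and the 75th percentile of the processed signal lay between 616 and 865. All 10 neural stem cell markers were above background on all arrays. Of 6 markers of the ganglionic eminence, Gsx2 and Nkx2-1 were above background on 0 arrays.

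**Figure D1:**
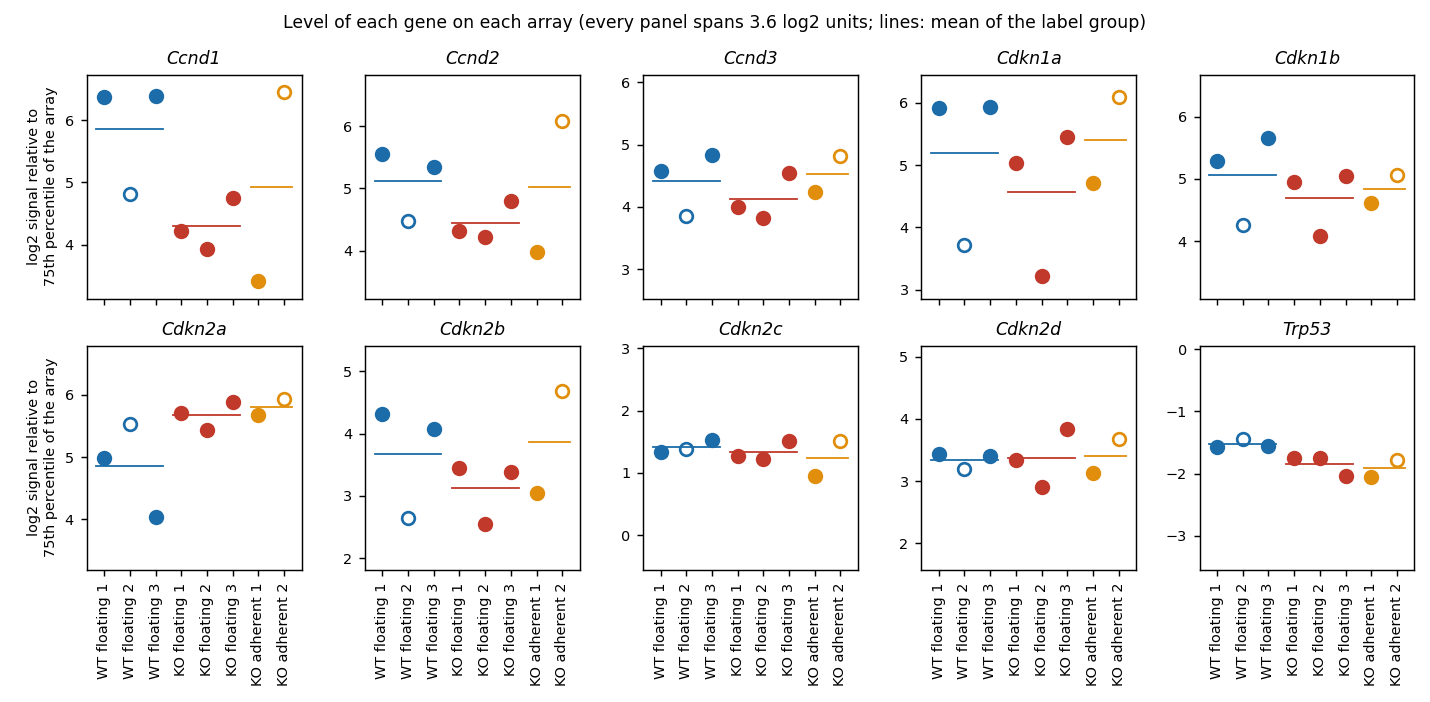
Log2 level relative to the array's 75th percentile for each of the 10 genes on each of the 8 arrays, blue for WT floating, red for KO floating and orange for KO adherent, with lines at the group means; open symbols are the array labelled WT floating 2 and that labelled KO adherent 2, whose Cbx3 signal opposes the label. Ccnd1 lies above 6 on 3 arrays and below 5 on the other 5, while Cdkn2c spans 0.57.

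Ccnd1 had the widest range of the 10 genes. Its level was 6.38, 4.82 and 6.39 on WT floating 1, 2 and 3, as labelled. The KO floating arrays 1, 2 and 3 had 4.22, 3.92 and 4.74, and the 2 arrays labelled KO adherent had 3.41 and 6.45. The arrays thus formed 2 levels, with the arrays labelled WT floating 1, WT floating 3 and KO adherent 2 high and the other 5 low. The gap between these levels was 1.56, or 2.95-fold, wider than the spread within the low arrays from 3.41 to 4.82. The 3 high arrays are the 3 with a high Cbx3 signal. The share of all features that split the arrays in this way was not counted. The match is therefore not shown to be particular to Ccnd1, nor to Ccnd2 and Cdkn2b below. Without the 2 label-opposing arrays, 29.3% of all features were lower on every KO array than on every WT array.

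Ccnd2, the D cyclin prominent in neural progenitors, split the arrays in the same way with a smaller gap. It was 5.55, 4.48 and 5.34 on WT floating 1, 2 and 3, 4.32, 4.22 and 4.80 on KO floating 1, 2 and 3, and 3.98 and 6.08 on KO adherent 1 and 2, as labelled. The gap below the 3 high arrays was 0.55. Ccnd3, the third D cyclin, ran from 3.82 on KO floating 2 to 4.83 on WT floating 3. Its 4 highest arrays were those 3 and KO floating 3 (4.54), and its largest gap was 0.30. Its other probe put the same 4 arrays on top, with a largest gap of 0.38.

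Cdkn1a separated another pair of arrays. It was 3.72 on the array labelled WT floating 2 and 3.21 on KO floating 2, and between 4.72 and 6.10 on the other 6, with a gap of 0.997. This is the pair with low Nr4a1, which shares a replicate number and a slide row. What part the immediate early state had in the Cdkn1a level was not tested. Among the other 6 arrays, WT floating 1 and 3 had 5.91 and 5.94, KO floating 1 and 3 had 5.03 and 5.46, and KO adherent 1 and 2, as labelled, had 4.72 and 6.10. Cdkn1b, encoding p27, was also lowest on this pair, at 4.25 and 4.09, and ranged from 4.62 to 5.66 elsewhere.

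Cdkn2a, encoding p16 and ARF, did not follow the 3 arrays on which Ccnd1 was high. It was 4.99, 5.52 and 4.04 on WT floating 1, 2 and 3, 5.72, 5.44 and 5.89 on KO floating 1, 2 and 3, and 5.68 and 5.94 on KO adherent 1 and 2, as labelled. Only the arrays labelled WT floating 1 and 3 were below 5. The array labelled KO adherent 2, high in Ccnd1 and in Cbx3, had the highest Cdkn2a level of all 8. The dimmer Cdkn2a probe put the same 2 arrays lowest, at -0.04 and -0.44, and the other 6 between 0.89 and 1.49. Both probes carry the same accession, and the files do not say which product, p16 or ARF, each of them reads.

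Cdkn2b, encoding p15, followed the D cyclins instead. It was 4.31, 2.64 and 4.07 on WT floating 1, 2 and 3, 3.45, 2.54 and 3.39 on KO floating 1, 2 and 3, and 3.04 and 4.69 on KO adherent 1 and 2, as labelled. The arrays labelled WT floating 1, WT floating 3 and KO adherent 2 were on top with a gap of 0.62, and the pair with low Nr4a1 was lowest. The second Cdkn2b probe gave the same 3 arrays with a gap of 0.65. Cdkn2a and Cdkn2b, adjacent on chromosome 4, therefore had unlike patterns over the arrays. Of the nearest protein-coding neighbours, Mtap, a methionine salvage enzyme, ranged from -0.85 to -0.02 over the 8 arrays, and Dmrta1 was above background on 0 of them. Zfp352, a zinc finger gene beyond Dmrta1, was above background on all 8. It was higher in KO by 1.102 (SE 0.27, limma adjusted p = 0.0427) in the 6-array comparison below, where 8.99% of all features were called higher. This was the direction of Cdkn2a, but the patterns over the 8 arrays differed. On the array labelled KO adherent 2, where Cdkn2a was highest, Zfp352 was at 2.95. It was at 2.51 and 2.50 on WT floating 1 and 3 and at 3.27 to 4.17 on the remaining arrays.

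Cdkn2c, Cdkn2d and Trp53 varied little. Cdkn2c, encoding p18, ranged from 0.96 on KO adherent 1 to 1.53 on WT floating 3. Cdkn2d ranged from 2.91 on KO floating 2 to 3.85 on KO floating 3, so that the KO floating group held both ends. Trp53 ranged from -2.05 to -1.44. The 3 arrays labelled WT floating (-1.58, -1.44 and -1.56) were above the 5 labelled KO. The KO arrays had -1.75, -1.75 and -2.04 in floating and -2.05 and -1.79 in adherent culture. The share of all features that split these arrays by label in this way was not counted.

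**Figure D2:**
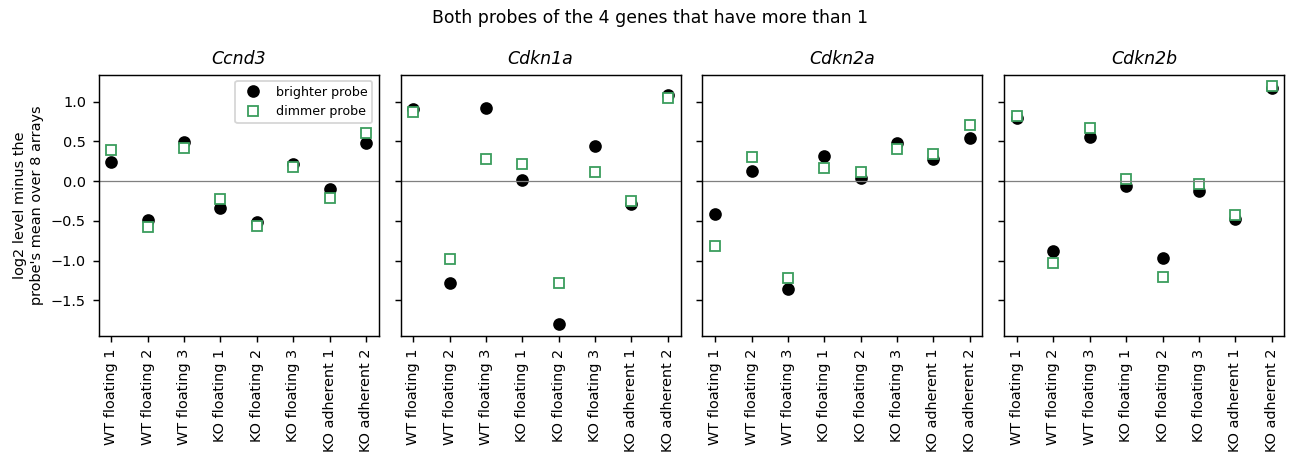
Log2 level of the brighter (black circles) and dimmer probe (green squares) of Ccnd3, Cdkn1a, Cdkn2a and Cdkn2b on the 8 arrays, each less its own mean over the arrays. Both probes of Cdkn2a are lowest on the arrays labelled WT floating 1 and 3, and both probes of Cdkn2b are highest on WT floating 1, WT floating 3 and KO adherent 2, as labelled.

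KO floating was compared with WT floating as labelled to ask how the loss of HP1gamma bears on these genes. None of the 10 genes passed the threshold, a Benjamini-Hochberg adjusted p of 0.05 in limma over 22647 features, where 0.00442% of all features passed. Nor did Cbx3, the gene of the KO label, at -5.33 (95% interval -11.5 to 0.85, limma adjusted p = 0.813), with the array labelled WT floating 2 in the WT group. The lack of calls therefore says little about the 10 genes. Of the 10, 8 were lower and 2 higher in KO, with a median difference of -0.35 against -0.03 over all features, and 0 of the 10 had an unadjusted p under 0.05. The Ccnd1 mean was 5.86 ± 0.91 for WT against 4.30 ± 0.41 for KO (SD, n = 3 each), a difference of -1.57 (95% interval -3.42 to 0.29, limma adjusted p = 0.813). The Cdkn2a mean was 4.85 ± 0.75 for WT against 5.68 ± 0.22 for KO (SD, n = 3 each), a difference of 0.83 (interval -0.03 to 1.69, limma adjusted p = 0.813). Cdkn2b differed by -0.55 (interval -1.92 to 0.82) and Cdkn1a by -0.62 (interval -2.54 to 1.29), and the direction of Cdkn1a rested on KO floating 2, since without that array the difference was 0.0524. For Ccnd1 and Trp53 all KO floating arrays were below all WT floating arrays, 2 of 10 genes, against 4.59% of all features. In the other direction it was 0 of 10, against 3.82%. Trp53 differed by -0.32 (interval -0.72 to 0.07), while Cdkn2c (-0.09, interval -0.56 to 0.38) and Cdkn2d (0.02, interval -0.63 to 0.67) had the narrowest intervals around 0 among the INK4 genes.

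With both label-opposing arrays left out, KO floating (n = 3) against WT floating (n = 2) gave larger differences, and again 0 of the 10 genes passed limma (0.177% of 25962 features did). Ccnd1 differed by -2.09 (SE 0.28, adjusted p = 0.0667), Ccnd2 by -1.001 (SE 0.24, adjusted p = 0.115), Cdkn2a by 1.17 (SE 0.34, adjusted p = 0.14) and Cdkn2b by -1.06 (SE 0.33, adjusted p = 0.152). Cdkn2d turned from 0.02 to -0.0541.

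When the KO-labelled arrays of both cultures (n = 4) were joined and compared with the arrays labelled WT floating 1 and 3 (n = 2), still without the same 2 arrays, 4 of the 10 genes passed, where 17.3% of all features did. Ccnd1, Ccnd2 and Cdkn2b fell and Cdkn2a rose. This was 3 of 10 genes lower and 1 of 10 higher, against 8.35% lower and 8.99% higher among all 21463 features in limma. Arrays did not overlap for 7 genes that were lower and 1 that was higher, where 29.3% and 24.0% of all features were so. The median difference of the 10 genes was -0.68, against -0.07 over all features. This comparison cannot separate culture from genotype for KO adherent 1, and bulk RNA cannot tell fewer expressing cells from less RNA per cell.

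Among the D cyclins, Ccnd1 fell from 6.39 ± 0.01 (SD, n = 2) to 4.08 ± 0.56 (SD, n = 4), 4.96-fold (limma adjusted p = 0.0164). Ccnd2 fell from 5.45 ± 0.14 (SD, n = 2) to 4.33 ± 0.35 (SD, n = 4), 2.17-fold (limma adjusted p = 0.0332). Ccnd3 went from 4.70 ± 0.18 to 4.15 ± 0.31 and did not pass (interval of the difference -1.10 to 0.00, limma adjusted p = 0.131). Its dimmer probe differed by -0.60 (SE 0.21) and did not pass either.

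Among the inhibitors, Cdkn2a rose from 4.52 ± 0.67 (SD, n = 2) to 5.68 ± 0.18 (SD, n = 4), 2.24-fold (limma adjusted p = 0.0403). With every probe as its own feature its dimmer probe rose by 1.28 (SE 0.17, limma adjusted p = 0.0134 over 25372 probes, of which 17.0% passed). Cdkn2b fell from 4.19 ± 0.17 to 3.11 ± 0.42 (SD, n = 2 and 4), 2.12-fold (limma adjusted p = 0.0463), and its dimmer probe differed by -1.16 (SE 0.36) without passing (limma adjusted p = 0.0688). Cdkn1a was 5.92 ± 0.01 against 4.60 ± 0.98 in KO, a difference of -1.32 with an interval from -2.75 to 0.11. Cdkn1b was 5.48 ± 0.26 against 4.68 ± 0.43 in KO, a difference of -0.80 that did not pass (limma adjusted p = 0.105). Trp53 (-0.33, SE 0.15), Cdkn2c (-0.19, SE 0.18) and Cdkn2d (-0.11, SE 0.27) did not pass, with adjusted p-values from 0.164 to 0.774.

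**Figure D3:**
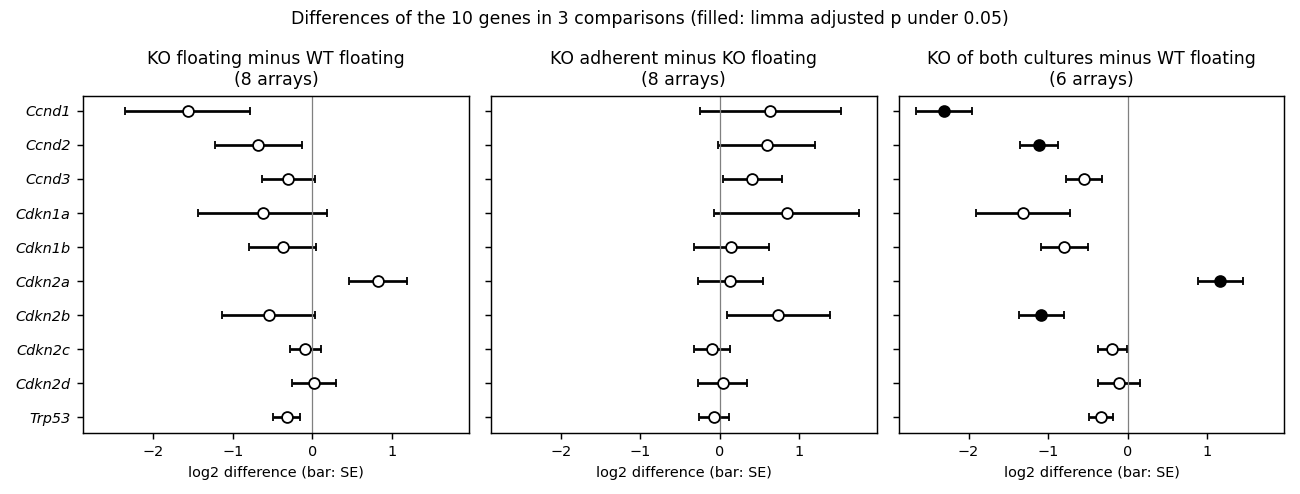
Log2 difference with its SE (bars) of the 10 genes in KO floating against WT floating and KO adherent against KO floating (8 arrays each) and in KO of both cultures against WT floating with both label-opposing arrays left out (6 arrays); filled symbols have a limma adjusted p under 0.05. Only Ccnd1, Ccnd2, Cdkn2a and Cdkn2b in the 6-array comparison are filled.

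The calls in the 6-array comparison rested on few arrays. With the replicate number as a block 2 of the 4 remained (Ccnd1 and Cdkn2b). With the slide row as a block Ccnd1 alone remained. With no filter on dim probes 0 of the 10 passed, and Cdkn2b did not pass with quantile normalization, with the mean of its probes or over the features of the 8-array fit. Within the rows, Ccnd1 differed by -2.31 and -2.32, Ccnd2 by -1.28 and -0.96, Cdkn2b by -1.32 and -0.85, and Cdkn2a by 0.59 and 1.74 (2 KO arrays and 1 WT array in each row). Leaving out WT floating 3 left 0 calls and a Cdkn2a difference of 0.69, and leaving out WT floating 1 left Cdkn2a alone, at 1.64. In both fits the WT arm is 1 array, assumed to vary like the KO arrays, so these calls and losses have no WT spread behind them. Without KO floating 1, or without KO adherent 1, Ccnd1 alone was called. Without KO floating 3, Cdkn2a was the one call lost, and without KO floating 2 the same 4 genes passed. The Ccnd1 difference itself stayed between -2.53 and -2.09 over the 6 fits with 1 array left out.

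**Figure D4:**
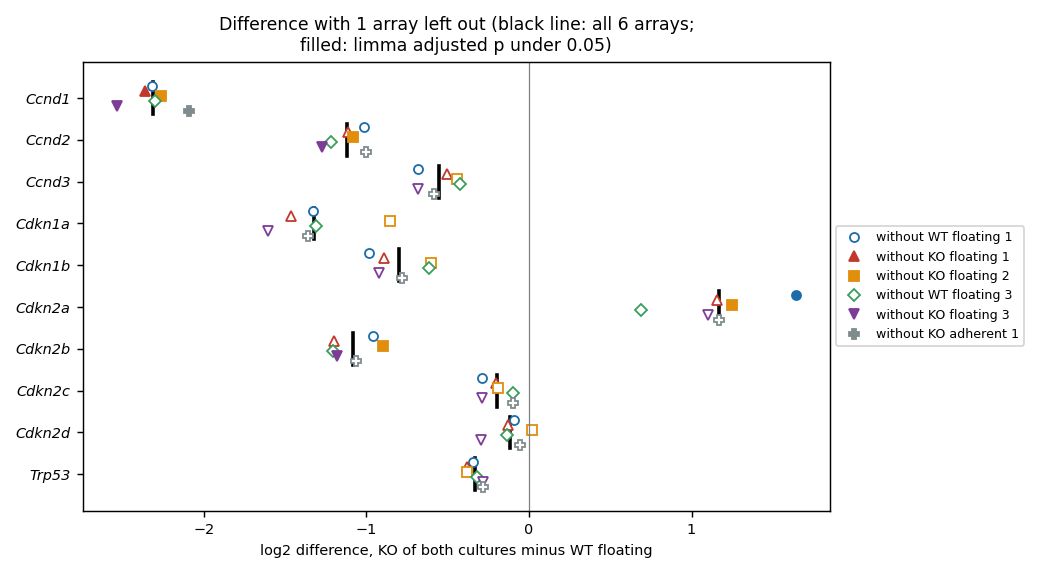
Log2 difference of the 10 genes in KO of both cultures against WT floating with each of the 6 arrays left out in turn (symbols, filled where the limma adjusted p is under 0.05) and with all 6 (black lines). Ccnd1 stays between -2.53 and -2.09, while Cdkn2a runs from 0.69 without WT floating 3 to 1.64 without WT floating 1.

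KO adherent was compared with KO floating to ask how attachment bears on the same genes. None of the 10 genes passed limma, and 0% of 22647 features did. Of the 10, 8 were higher and 2 lower in adherent culture, with a median of 0.28 against 0.06 over all features. For Ccnd1 and Ccnd2 one array labelled KO adherent lay below all KO floating arrays and the other above them, and for Cdkn2b one lay among them (3.04) and the other above (4.69). Ccnd1 averaged 4.93 ± 2.15 (SD, n = 2) against 4.30 ± 0.41 (SD, n = 3), a difference of 0.64 (interval -1.44 to 2.71, limma adjusted p = 0.99). With both label-opposing arrays left out, which leaves KO adherent 1 assumed to vary like the other groups, Ccnd1 turned to -0.88, Ccnd2 to -0.47, Cdkn2b to -0.0863, Cdkn1b to -0.0836 and Cdkn2d to -0.237, none past the threshold. Cdkn2a differed by 0.13 (interval -0.83 to 1.09) with these arrays and by 0.0015 without them.

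The genes around these members in the pathway were taken as 5 lists, and 0 of their members passed limma in either comparison of 8 arrays. In the 6-array comparison 12 genes of the G1/S machinery were lower and 11 higher of 23 tested, with a median of -0.08. E2f1, the E2F factor that drives S phase genes, fell from 0.96 to -0.48 (SE of the difference 0.38, limma adjusted p = 0.0493) and was the single one of 23 past the threshold, where 17.3% of all features passed. The kinase partner Cdk4 differed by 0.07 (SE 0.15), Ccne1, the cyclin of CDK2, by -0.12 (SE 0.15) and the retinoblastoma gene Rb1 by -0.08 (SE 0.14). The differences of Cdk4, Ccne1 and Rb1 were thus each under their SE. Not all of the list was so flat. Its largest difference was that of Cdkn1c, at -2.04 (SE 0.80), which did not pass (limma adjusted p = 0.118). E2f5 (-0.37, SE 0.13) and E2f6 (0.42, SE 0.16) did not pass either.

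Of 27 measured S phase and mitosis genes 24 were lower and 3 higher, with a median of -0.36 against -0.07 over all features, and 0 passed. Its brightest members were Pcna, the replication clamp, at -0.36 (SE 0.20), and Mcm6, a subunit of the replicative helicase, at -0.42 (SE 0.21). Outside this comparison, the array labelled WT floating 2, low in Cbx3 and in Ccnd1, had the highest level of all 8 arrays for the proliferation marker Mki67 (3.96), the mitotic kinase Plk1 (3.18) and the ribonucleotide reductase subunit Rrm2 (4.11).

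Of 25 p53 regulators and targets 17 were lower and 8 higher, and 3 fell and 2 rose past the threshold, a share near the 17.3% of all features called. Perp, a membrane protein induced by p53, fell by 2.63 on the log2 scale (SE 0.62), Sesn1, a stress-induced sestrin, by 1.29 (SE 0.33) and Plk3, a stress kinase, by 0.86 (SE 0.20). Rrm2b, a ribonucleotide reductase subunit, rose by 0.71 (SE 0.19) and Tigar, a regulator of glycolysis, by 0.67 (SE 0.15). Mdm2, the ubiquitin ligase of p53, was at -0.69 (SE 0.33) and Gadd45a at -2.53 (SE 0.72), and both missed the threshold (limma adjusted p = 0.18 and 0.0565). Perp had 0.35 and 0.13 on WT floating 1 and 3, -3.21 to -1.11 on the 4 KO arrays, and, outside this comparison, 0.63 on the array labelled KO adherent 2 and -2.59 on that labelled WT floating 2.

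Of 20 measured regulators of the INK4 and ARF locus 13 were lower and 7 higher, and 2 fell and 1 rose past the threshold, again no more than the 17.3% of all features called. Ets2, an ETS factor known to activate p16, fell from 2.82 to 1.07 (SE 0.22, limma adjusted p = 0.0115), and Ets1, a relative with the same known target, rose by 1.03 (SE 0.25). Phc2, a Polycomb group protein, fell by 0.69 (SE 0.15). The Polycomb genes Bmi1 (-0.16, SE 0.18), Ezh2 (-0.22, SE 0.17), Ezh1 (-0.75, SE 0.30) and Eed (-0.65, SE 0.22) did not pass. Hmga2, with a larger difference of -1.46 (SE 0.40), narrowly missed the threshold (limma adjusted p = 0.0525). Of 18 measured mitogen response genes 2 passed, a lower share than the 17.3% of all features. Etv4, an ETS factor induced by FGF signalling, rose by 1.48 (SE 0.34) and its relative Etv5 fell by 0.48 (SE 0.13). Myc was at -0.33 (SE 0.51) and did not pass. The replicate number as a block moved these counts to 2 higher and 4 lower of the p53 list, 2 higher and 3 lower of the INK4 and ARF list, 4 higher and 0 lower of the mitogen list and 0 of the G1/S list. Over the 12 alternatives the lower count of the INK4 and ARF list fell to 0 or 1 in 3. The higher counts of that list and of the mitogen list moved in 3 each. With no filter on dim probes 0 members of any list passed. The E2f1 call and the lower call of the mitogen list were also lost with quantile normalization, with the slide row as a block and over the features of the 8-array fit, and the counts of the p53 list that rose moved to 0 or 1 in 7 of 12 alternatives. Without WT floating 1, or without WT floating 3, which leaves 1 WT array, 0 members of the 5 lists passed. Without KO floating 1, or without KO adherent 1, 1 member in all passed, from the INK4 and ARF list.

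**Figure D5:**
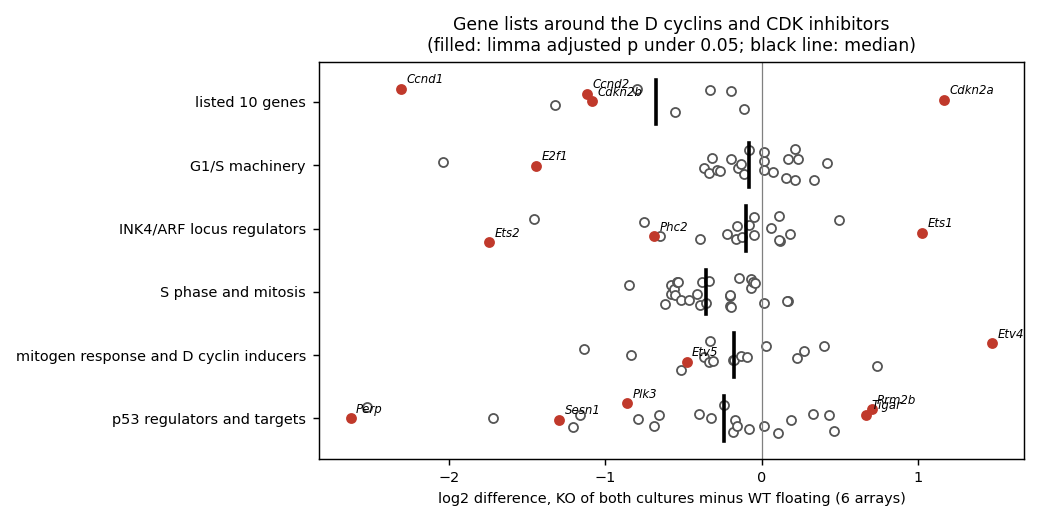
Log2 difference of each measured gene of the 10 listed genes and of 5 pathway lists in KO of both cultures against WT floating (6 arrays), with genes of a limma adjusted p under 0.05 filled and named and black lines at the medians. The medians are -0.68 for the 10 genes, -0.36 for S phase and mitosis, -0.24 for p53 regulators and targets and -0.08 for the G1/S machinery.

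Summed levels of several marker lists separated the 2 WT arrays from the 4 KO arrays of this comparison, though not every member moved with its sum. The summed linear level of 5 astrocyte markers, in units of the 75th percentile, was 45.9 to 48.2 on WT floating 1 and 3 and 160 to 295 on the 4 KO arrays. S100b and Aldoc made up most of it, while Gfap, the defining filament protein of astrocytes, was at -1.86 and -2.42 on the WT arrays and -5.18 to -3.72 on the KO arrays, and Aqp4 overlapped. The sum of 6 oligodendrocyte lineage markers was 45.0 to 48.1 against 129 to 191, and that of 10 neural stem cell markers 504 to 511 against 658 to 981. Against these sums, the myelin gene Mbp was at -1.53 and -0.59 on WT and -3.12 to -2.21 on KO, Nes at 5.26 and 5.06 on WT and 4.03 to 4.73 on KO, and Vim at 7.82 and 7.84 on WT and 6.98 to 7.36 on KO, while Sox10 overlapped. The sum of 6 neuronal markers was 22.8 to 23.3 against 29.8 to 36.3, and that of 6 ganglionic eminence markers 37.7 to 46.5 against 31.6 to 37.4. The sum of 6 microglial markers was 14.0 to 14.6 against 16.0 to 27.2, with Aif1, Cx3cr1, Ptprc and Tyrobp above background on 0 arrays, and that of 5 endothelial markers was 9.61 to 11.5 against 8.11 to 11.5, with Cdh5 and Cldn5 on 0 arrays. The endothelial sums overlapped, as did those of the 6 mesenchymal markers, which came to at most 0.52 on every array. What part the cell makeup had in the levels of the cyclins and inhibitors was not tested.

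For the 4 genes with a range of at least 2 over the arrays, the nearest patterns were found by the root mean square difference of centred log2 values over the 8 arrays. For Ccnd1 these were Il3ra (0.23), an interleukin 3 receptor chain, Plvap (0.23), an endothelial vesicle protein, and Tnfrsf18 (0.24), a TNF receptor family member. Plvap had its largest gap, 1.58, between the same 3 high and 5 low arrays as Ccnd1. For Ccnd2 they were Cpne2 (0.12), Dera (0.16) and Fkbp14 (0.17), all with their largest gap below the same 3 arrays. For Cdkn2b they were Hprt (0.17), a purine salvage enzyme, the class I histocompatibility gene H2-Q8 (0.17) and Srxn1 (0.17), a sulfiredoxin. Hprt and H2-Q8 had their largest gap below the same 3 arrays, while Srxn1 also had KO floating 3 above its largest gap. For Cdkn1a they were Kdelr3 (0.15), an ER retention receptor, Rasip1 (0.16) and Zfp395 (0.16), each with its largest gap above the arrays labelled WT floating 2 and KO floating 2. These are descriptions over 8 arrays that share 1 slide. The genes were picked for likeness to the member on these arrays, so a shared gap largely follows from that choice.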

How the data were processed

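Single-colour (Cy3) Agilent arrays, 8 on 1 slide, were analysed. Per the file headers, the deposited spot intensity values were made by the authors with Agilent Feature Extraction 11.0.1.1, whereas 9.1.3.1 stands in the submitters' processing notes. Their value table matched the scanner files' processed signal within 0.01% for 100% of probe values on each array, so it is on a linear scale without normalization between arrays.

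The log2 of the processed signal was scaled by the 75th percentile of all non-control spots of the array. Outlier spots were left out (200 probes without a value on some array were not tested) and repeated spots averaged. Of 55681 probes, 27235 matched a RefSeq gene (GRCm38.p6 table) by accession. Probes were kept where 1 group or more had them well above background on all its arrays, and the brightest stood for a gene. limma 3.58.1 in R 4.3.3 (two-sided, Benjamini-Hochberg over all features) was fitted on all 8 arrays with 3 groups, and on 6 arrays with 2 groups. The fits were tested on simulated data. There a 2-fold change was recovered in 4.48% of cases in both 8-array comparisons and in 25.4% in the 6-array comparison. A 4-fold change was recovered in 71.6% for KO against WT floating, 67.2% for KO adherent against KO floating and 85.1% in the 6-array comparison. These shares are those of the simulated data. In the arrays themselves, Cbx3 differed 40.2-fold (-5.33, SE 2.63) in KO against WT floating and did not pass (limma adjusted p = 0.813). The shares therefore do not carry over to genes with as wide a spread within a group. A gene that did not pass is not shown to be unchanged. Members, lists (5), rules and alternatives were chosen with earlier results of these data known. All 10 members were named; of each list, up to 6 passing members, or its 2 brightest where none passed; other list genes were named after their values were seen. Deviations of same-numbered floating arrays from their group means had r = 0.103, 0.590 and 0.335 across features. Some arrays of unlike number reached similar values, WT floating 1 with KO floating 3 at 0.346 and WT floating 3 with KO floating 1 at 0.205. The remaining values of unlike number, each with WT floating 2 or KO floating 2, were negative, at -0.192, -0.505, -0.452 and -0.419. These values do not settle whether replicate numbers are pairs, so the replicate number was a block only in an alternative. Blocked values stand where they change a call. The number of arrays limits the precision, and p-values measure the spread between these samples.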

Additional observations from a re-analysis of the deposited data

How the results depend on the processing

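For the comparisons of 8 arrays, 0 of the 10 genes passed limma under each of 13 alternatives and with each array left out (0 to 0). In KO of both cultures against WT floating (6 arrays), the 4 genes called became 0 with no filter on dim probes, 2 when the replicate block was added and 1 when slide row was the block; with 1 array left out the count ranged from 0 to 4. It was 3 or 4 under the other 8 alternatives and 1 more: every probe as its own feature, chosen after seeing the data. The sign of Cdkn2d turned most often: in the 6-array comparison it was 0.0137 with quantile normalization and 0.0747 with the replicate block, and -0.293 to 0.0198 with 1 array left out; in KO against WT floating it was -0.0541 with both label-opposing arrays left out and -0.219 to 0.251 with 1 array left out, where Cdkn1a ranged from -1.36 to 0.0524. In KO adherent against KO floating, quantile normalization gave -0.0310 for Cdkn2d and the replicate block -0.0217 for Cdkn2a. The slide row as a block gave -0.00957 for Ccnd3, -0.329 for Cdkn1b, -0.231 for Cdkn2d and 0.0424 for Trp53. With both label-opposing arrays left out, Ccnd1 was -0.88, Ccnd2 -0.47, Cdkn1b -0.0836, Cdkn2b -0.0863 and Cdkn2d -0.237. With 1 array left out, ranges that crossed 0 were -0.88 to 2.15 for Ccnd1, -0.47 to 1.64 for Ccnd2, -0.161 to 0.371 for Cdkn1b, -0.0863 to 1.56 for Cdkn2b, -0.377 to 0.183 for Cdkn2c, -0.237 to 0.309 for Cdkn2d and -0.199 to 0.0605 for Trp53. No value that turned sign had passed the threshold, and the cause was not tested. The replicate block changed no other call of the 10 genes.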
